A study of Mus musculus with 6 samples.

Results

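Mouse preadipocytes, labelled as brown, gave circular RNAs (circRNAs, closed RNA molecules made when a downstream splice site is joined to an upstream one) from 3 genes of the nuclear factor I family, Nfia, Nfib and Nfix. The members were all table entries lying wholly inside 1 fixed window per gene, on the host's strand of the build mm9: 360 kb on chromosome 4 (plus strand) for Nfia, 230 kb on chromosome 4 (minus strand) for Nfib, and 100 kb on chromosome 8 (minus strand) for Nfix. These windows held 10 of the 3869 listed circRNAs, 4 for Nfia, 3 for Nfib and 3 for Nfix, and no further entry crossed a window's edge. The cells were primary stromal vascular cells of C57BL/6 mice aged 6 weeks, from a depot that the labels name inguinal BAT (brown adipose tissue). Inguinal fat of mice is usually classed as white, so whether these are classical brown preadipocytes is uncertain. No genetic change is given for any group, and the labels do not say how many animals were pooled. Day 0 cells were labelled proliferating. Day 4 cells had spent 4 days with insulin, dexamethasone and 3-isobutyl-methylxanthine, and day 8 cells a further 4 days with insulin and T3. Growth medium held 20% fetal bovine serum and the differentiation medium of days 4 and 8 held 10%. Serum therefore differed from day 0 along with these additions. Each day had 2 libraries, and nothing says whether these came from separate cultures, so p-values measure the spread between libraries only, which may be technical. Whether the cells carried markers of brown fat was not tested, because the table has no gene names.

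Nuclear factor I proteins are transcription factors that bind DNA as dimers through a conserved amino-terminal domain, most of which is encoded by exon 2 of each gene. The carboxy-terminal part, spread over the later exons, acts on transcription and varies through alternative splicing. Nfia is known as an activator of the brown fat gene programme that works on enhancers shared with PPARγ, while Nfib and Nfix are best known from the development of lung, brain and muscle. A circRNA is usually stable, so its level need not follow that of the linear mRNA of its host. Linear RNA was depleted before sequencing and host mRNA levels were not analysed here. In such bulk cultures fewer cells of a type and less RNA per cell cannot be told apart.

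The sequence at a back-splice join shows which exon ends were brought together. No genome of the build mm9 was used, so exons were assigned by the genomic distance between the joined ends. It was compared with that of every exon pair found within 1 transcript of the same gene in GENCODE M21 (142 pairs for Nfia, 181 for Nfib and 153 for Nfix). For 9 of the 10 circRNAs the distance equalled that of exactly 1 exon pair, to the base. Exon numbers are those of the transcripts Nfia-202, Nfib-201 and Nfix-201. Each join below was built from the GENCODE M21 transcript (build GRCm38) and runs 5′ to 3′, with the last 20 bases of the downstream exon in lower case and the first 20 bases of the upstream exon in capitals. In the first group, all but the last join show exon ends that recur within a gene or exons of the same number in both genes; the last, Nfib exons 2 to 8, shares neither end with another listed circRNA of Nfia or Nfib.
Nfia exons 3 to 7: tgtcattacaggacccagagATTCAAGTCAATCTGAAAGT
Nfia exons 3 to 6: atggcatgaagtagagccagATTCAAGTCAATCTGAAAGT
Nfia exons 4 to 6: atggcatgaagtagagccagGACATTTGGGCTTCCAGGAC
Nfib exons 3 to 6: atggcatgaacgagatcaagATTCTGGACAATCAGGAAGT
Nfib exons 4 to 6: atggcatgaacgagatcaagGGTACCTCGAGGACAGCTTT
Nfib exons 2 to 8: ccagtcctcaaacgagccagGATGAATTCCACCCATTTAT

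The joins of exon 6 to exon 3 in Nfia and Nfib matched at 16 of 20 bases on the exon 6 side and at 15 of 20 on the exon 3 side. The joins of exon 6 to exon 4 shared the same 16 of 20 bases on the exon 6 side but only 5 of 20 on the other. All 4 Nfia circRNAs ended on exon 6 or exon 7, with 2 on each, and 2 of them began at exon 3. In Nfib the circRNAs of exons 3 to 6 and 4 to 6 shared the end of exon 6. Exon 3 was the upstream end in 4 of the 9 assigned circRNAs, in all 3 genes, and exon 6 the downstream end in 4.

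The Nfix circRNA of exon 2 alone (mmu_circ_0001704 in the catalogue circBase, chromosome 8, 87295683 to 87296214, minus strand, mm9) held most of the family's reads, so 300 of its 532 bases are printed. The stretch is centred on the join, with the 20 bases on either side of the join in capitals.
Nfix exon 2 circle: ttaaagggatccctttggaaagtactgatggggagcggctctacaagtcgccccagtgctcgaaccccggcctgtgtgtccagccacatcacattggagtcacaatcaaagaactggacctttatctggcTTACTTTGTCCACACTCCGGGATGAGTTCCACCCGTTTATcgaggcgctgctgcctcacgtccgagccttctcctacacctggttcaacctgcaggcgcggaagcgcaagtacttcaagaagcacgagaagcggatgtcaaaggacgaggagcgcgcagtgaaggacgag

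Exon 2 was also 532 bases long in Nfia and Nfib, and each was identical to that of Nfix at 418 of 532 bases (78.6%). No circRNA of exon 2 alone was listed for Nfia or Nfib. Over the 40 bases centred on such a join, the Nfia exon would differ from Nfix at 11 bases and the Nfib exon at 12, as the following hypothetical joins show beside the listed one.
Nfix exon 2 join: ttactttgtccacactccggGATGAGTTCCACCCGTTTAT
Nfia exon 2 join, not listed: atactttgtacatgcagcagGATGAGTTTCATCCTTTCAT
Nfib exon 2 join, not listed: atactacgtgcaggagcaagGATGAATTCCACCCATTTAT

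All 9 assigned circRNAs joined exons that hold coding sequence. If every annotated exon between the ends is retained, the circles would be 321 to 516 bases long for Nfia and 309, 363 and 1215 bases long for Nfib. All 7 of these lengths are multiples of 3, and all 7 have 0 stop codons in the frame of the host gene. The Nfix exon 2 circle is not a multiple of 3, and read in the host's frame it meets a stop codon on the second pass. The circle of Nfix exons 3 to 7 would be 572 bases long in Nfix-201, also not a multiple of 3, and 569 to 695 bases long in the transcripts that hold the pair. Neither the exons inside the circles nor their translation were measured. The tenth member, Nfix exon 2 extended (chromosome 8, 87295683 to 87303174, minus strand, mm9), shared the downstream end with the exon 2 circle. Its upstream end lay 6960 bp further upstream, and the distance between its ends matched none of the exon pairs compared.

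**Figure D1:**
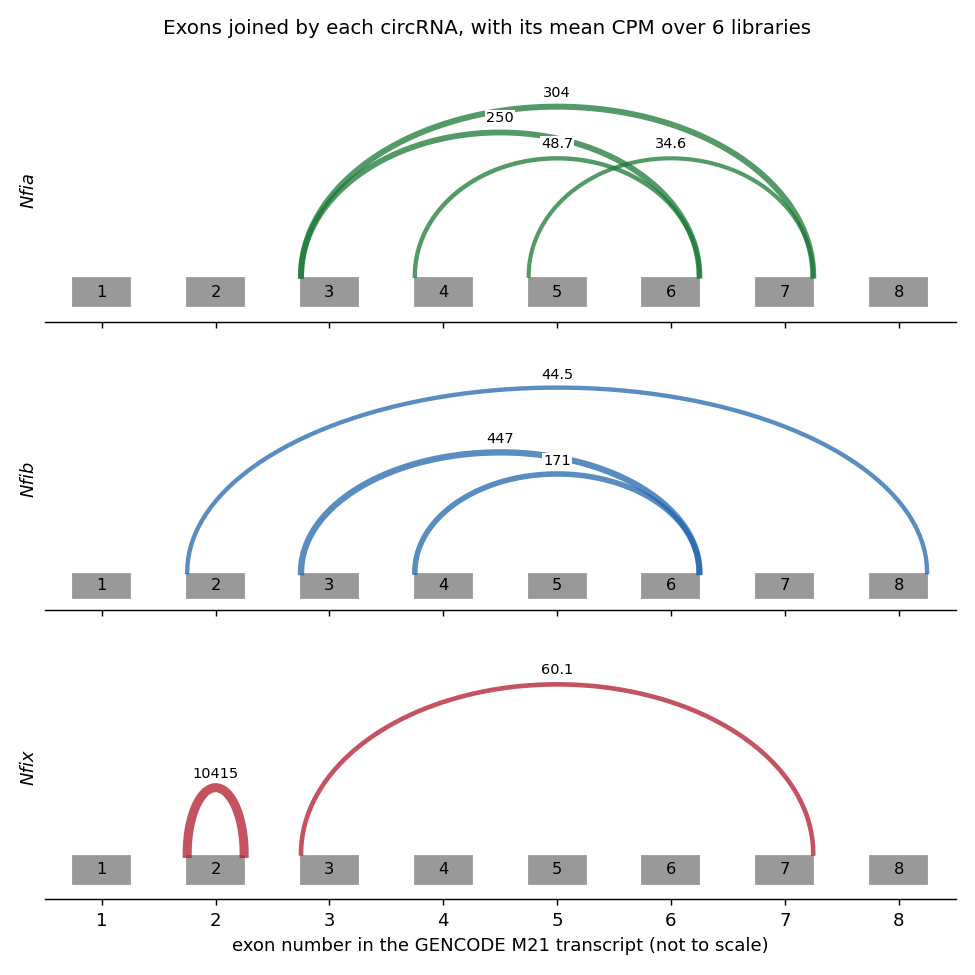
Exons joined by the 9 assigned circRNAs, drawn as arcs over exon numbers 1 to 8 (horizontal axis, not to scale, later exons not drawn), with thicker lines for a higher mean CPM over 6 libraries, which is printed on each arc. Nfia arcs meet at exons 3, 6 and 7 and Nfib arcs at exon 6, whereas the exon 2 circle of Nfix reaches 10415 CPM; Nfix exon 2 extended is not drawn.

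Levels are given in CPM, the reads on a back-splice join scaled so that all listed circRNAs of a library sum to 1e+06. Each circRNA has 1 join, so a level does not grow with the length of the RNA. The values of a library rose in equal steps, taken here as 1 read each and worth 21.9 to 24.8 CPM. The libraries held 40384 to 45733 such inferred reads, of which the 10 members held 400 to 646. No value was 1 step, so a 0 may hide 1 read. All 3869 entries were above 0 in both libraries of some day, a selection that favours differences between days among circRNAs with few reads. It touches 6 of the 10 members here, since only 4 were above 0 in all 6 libraries. Of the members 5 carried a circBase identifier, against 63.1% of the table, and their median genomic span was 24015 bp, against 7871 bp.

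The Nfix exon 2 circle was the fifth most abundant circRNA of the table by mean CPM, and it was high at every stage. It had 10279 and 9080 CPM on day 0, 8943 and 9113 CPM on day 4, and 13939.6 and 11133 CPM on day 8. Both day 8 libraries lay above all 4 earlier ones, while days 0 and 4 overlapped. These values rest on 368 to 569 reads per library, for which counting alone gives an error of 4.19% to 5.21%. The limma model did not call a difference: day 8 was higher than day 4 by 0.46 on the log2 scale (SE 0.17, 95% interval 0.04 to 0.88, unadjusted p = 0.0361, adjusted p = 0.192). Against day 0 the day 8 level differed by 0.37 (95% interval -0.06 to 0.79, adjusted p = 0.257) at these depths. Here and below, log2 differences are of log2(CPM + 43.7), which understates changes of low circRNAs. Adjusted p is limma's, by Benjamini-Hochberg over all 3869 circRNAs, and called means under 0.05.

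The other Nfix circRNAs were rare. Nfix exon 2 extended had 92.8 and 145 CPM on day 0, 87.5 and 149 CPM on day 4, and 73.5 and 71.1 CPM on day 8, from 3 to 6 reads. Its day 8 libraries were the lowest of the 6, and it was called in no comparison (adjusted p = 0.713 at day 8 against day 0 and 0.762 against day 4). The circle of exons 3 to 7 (mmu_circ_0015053, chromosome 8, 87245542 to 87251866, minus strand, mm9) was listed at 0 in both day 0 libraries. It had 65.6 and 74.3 CPM on day 4, and 220 and 0 CPM on day 8, where 1 library had 9 reads and the other none. It was not called at day 4 against day 0 (log2 difference 1.38, adjusted p = 0.423), although the same difference had an adjusted p of 0.00564 without day 8 replicate 1. This circRNA entered the table only through day 4, which fixes its difference from day 0. Without day 8 replicate 1, day 8 was also called lower than day 4 (log2 difference -1.38, adjusted p = 0.00242, main value -0.08), since the one remaining day 8 value is 0. The exon 2 circle held 98.8% ± 0.481 (SD, n = 2) of Nfix circRNA CPM on day 0, 98.0% ± 0.498 at day 4 and 98.7% ± 1.01 at day 8.

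The most abundant Nfia circRNA was low before induction and highest at day 4. It was the circle of exons 3 to 7 (mmu_circ_0011879, chromosome 4, 97623065 to 97708370, plus strand, mm9). It had 0 and 96.9 CPM on day 0, 525 and 669 CPM on day 4, and 318 and 213 CPM on day 8, from 0 and 4, 24 and 27, and 13 and 9 reads. The 3 days did not overlap: both day 4 libraries were the highest and both day 0 libraries the lowest. It rose at day 4 against day 0 by 3.02 on the log2 scale (SE 0.65, adjusted p = 0.0478). The size rests on the pseudocount, since 1 day 0 library is at 0. Among the 10 members it was the only one called in this comparison, where 8.12% of all circRNAs were called, 3.85% higher and 4.26% lower. At day 8 against day 0 the difference was 1.96 (SE 0.65, adjusted p = 0.126), and at day 8 against day 4 it was -1.06 (adjusted p = 0.456). The day 4 call held without day 0 replicate 2 (adjusted p = 0.0249). It was lost without replicate 1 of day 0 (adjusted p = 0.0831), without either replicate of day 4 (0.194 for the first and 0.242 for the second) and without either of day 8 (0.136 and 0.137). The day 4 difference itself was 2.18 without replicate 1 of day 0 and 3.86 without replicate 2. The day 8 difference against day 0 was 1.12 (adjusted p = 0.226) and 2.80 (adjusted p = 0.0408, called) in these fits. With pseudocounts of 1 and 0.1 CPM the day 4 difference became 5.91 and 7.57 and the adjusted p 0.219 and 0.337. Fitted on the libraries of days 0 and 4 alone the adjusted p was 0.127, and after removing circRNAs that did not reach 10 reads in 2 libraries it was 0.0671.

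The circle of Nfia exons 3 to 6 (chromosome 4, 97623065 to 97687645, plus strand, no circBase identifier) starts at the same exon. It had 278 and 0 CPM on day 0, 394 and 322 CPM on day 4, and 294 and 213 CPM on day 8. Day 4 lay above both other days, but the day 0 libraries differed from each other by 12 reads against 0. The 2 leading Nfia circles thus appeared in opposite day 0 libraries, exons 3 to 6 in replicate 1 only and exons 3 to 7 in replicate 2 only. It was called in no comparison (log2 difference 1.75, SE 0.94, adjusted p = 0.363 at day 4 against day 0). Which day 0 library was kept decided that difference: it was 3.19 (adjusted p = 0.0457) without replicate 1 of day 0 and 0.31 (adjusted p = 0.685) without replicate 2. The circles of exons 4 to 6 (97667083 to 97687645) and 5 to 7 (97680904 to 97708370) were listed at 0 in both day 0 libraries. Exons 4 to 6 had 0 and 149 CPM on day 4 and 49.0 and 94.8 CPM on day 8. Exons 5 to 7 had 109 and 49.5 CPM on day 4 and 49.0 and 0 CPM on day 8. Neither exceeded 6 reads in a library or was called (adjusted p = 0.109 for exons 5 to 7 and 0.450 for exons 4 to 6, day 4 against day 0). The circle of exons 5 to 7 entered the table only through day 4, which fixes its difference from day 0 in this comparison. Exons 4 to 6 entered only through day 8, which fixes its difference from day 0 at day 8.

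**Figure D2:**
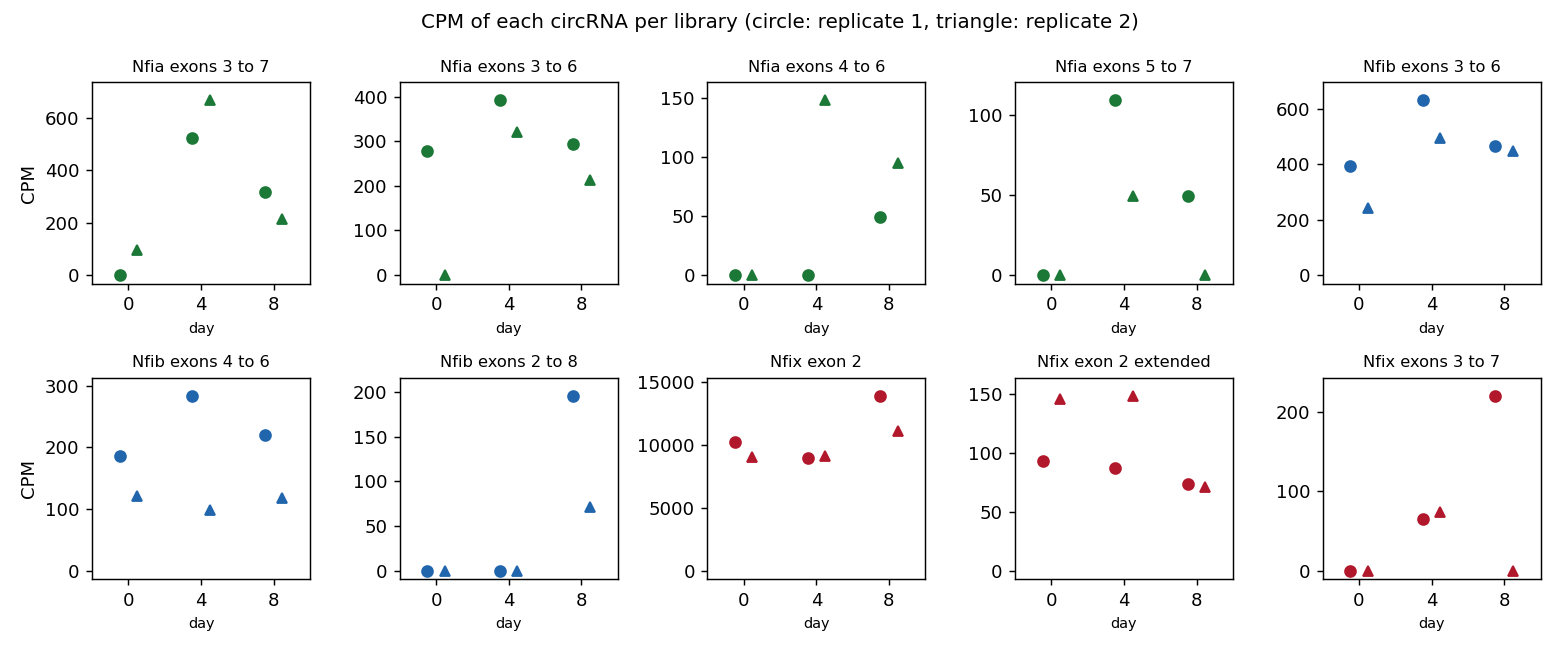
CPM (vertical axes, scaled per panel) of each of the 10 circRNAs in the 6 libraries by day. Nfia exons 3 to 7 has its 2 day 4 libraries above the rest, Nfib exons 2 to 8 is above 0 at day 8 alone, and Nfix exon 2 has its 2 highest values at day 8.

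Summed per gene, the Nfia circRNAs rose from day 0 to day 4. The sum was 278 and 96.9 CPM on day 0, 1028 and 1189 CPM on day 4, and 710 and 521 CPM on day 8. The 3 days did not overlap, with means of 188 ± 128, 1108 ± 114 and 616 ± 134 CPM (SD, n = 2). The day 4 mean was 5.91 times the day 0 mean and the day 8 mean 3.28 times. These folds rest on 2 unequal day 0 libraries, and the log2 difference given next for day 4 was 3.03 without replicate 1 of day 0 and 1.83 without replicate 2. The sums were tested with limma in a table of 2510 units, the 3 genes and the loci formed by overlapping circRNAs elsewhere, of which 7.97% were called at day 4 against day 0 (3.82% higher, 4.14% lower). The Nfia sum was called higher at day 4 than at day 0 (log2 difference 2.43, SE 0.45, 95% interval 1.32 to 3.54, adjusted p = 0.0290). This sum includes the circle starting at exon 5, which entered the table only through day 4 (109 and 49.5 CPM). That selection fixed part of the difference, and no fit left out this circle alone. The circles starting at exon 3 summed to 278 and 96.9 CPM on day 0 and 918 and 990 CPM on day 4. The Nfia sum was not called at day 8 against day 0 (1.62, SE 0.45, 95% interval 0.50 to 2.73, adjusted p = 0.0747) or at day 8 against day 4 (-0.82, 95% interval -1.93 to 0.30, adjusted p = 0.373). The circle starting at exon 4 entered only through day 8, which fixed part of the day 8 difference from day 0. The day 4 call held without day 0 replicate 1 (adjusted p = 0.020), where the day 8 difference against day 0 was also called (2.21, adjusted p = 0.0344). The day 4 call was lost without replicate 2 of day 0 (adjusted p = 0.0641), without either replicate of day 4 (0.162 for the first and 0.192 for the second) and without either of day 8 (0.107 and 0.109). It was also lost when days 0 and 4 were fitted alone (0.1). Without the leading circle the difference was 2.23 (adjusted p = 0.237).

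The 2 downstream ends of Nfia were both in use at days 4 and 8. Circles ending on exon 7 summed to 0 and 96.9 CPM on day 0, 634 and 718 CPM on day 4, and 367 and 213 CPM on day 8. Those ending on exon 6 summed to 278 and 0 CPM, 394 and 470 CPM, and 343 and 308 CPM. The exon 7 sum was above the exon 6 sum in both day 4 libraries, and at day 8 the order differed between the libraries.

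The only Nfib circle called, exons 2 to 8, entered the table only through day 8. It is described below, with the shares of all circRNAs called. The leading circle, exons 3 to 6 (mmu_circ_0001221, chromosome 4, 81996293 to 82029565, minus strand, mm9), had 394 and 242 CPM on day 0, 634 and 495 CPM on day 4, and 465 and 450 CPM on day 8. Both later days lay above day 0, from 10 to 29 reads per library. The log2 difference was 0.77 at day 4 (SE 0.33, 95% interval -0.04 to 1.58, adjusted p = 0.245) and 0.50 at day 8 (95% interval -0.31 to 1.31, adjusted p = 0.422), both against day 0. The circle of exons 4 to 6 (mmu_circ_0011795, 81996293 to 82005704) had 186 and 121 CPM, 284 and 99.0 CPM, and 220 and 118 CPM at the 3 days, which overlapped throughout. Its fitted log2 differences were 0.15 at day 4 and 0.09 at day 8 against day 0 (adjusted p = 0.957 and 0.976). In all 6 libraries exons 3 to 6 stood above exons 4 to 6, with which it shares the end of exon 6.

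The long Nfib circle of exons 2 to 8 (chromosome 4, 81973633 to 82144673, minus strand, no circBase identifier) appeared at day 8. Both libraries of day 0 and both of day 4 listed it at 0, and it had 196 and 71.1 CPM on day 8, from 8 and 3 reads. It entered the table only through day 8, so its difference from the earlier days was fixed by that selection and its p-values support nothing. The fit called it higher at day 8 than at day 0 (fitted log2 difference 1.92, SE 0.36, adjusted p = 0.0192) and than at day 4 (adjusted p = 0.0229). It was the only member called in either comparison, out of 10. Against day 0, 12.3% of all circRNAs were called, 7.31% higher and 5.01% lower, and against day 4, 9.56% were, 6.02% higher and 3.54% lower. As 4 of the 6 values are 0, the day 8 pair is the only one that varies, and the fitted SE also draws on limma's estimate of the spread from other circRNAs. The fitted size depends on the pseudocount, being 6.90 with 1 CPM and 0.71 with 200 CPM, and with 200 CPM neither comparison was called (adjusted p = 0.0516 against day 0 and 0.0635 against day 4). Leaving out replicate 1 or 2 of day 0 gave an adjusted p of 0.168 or 0.166 against day 0, leaving out replicate 1 or 2 of day 4 gave 0.0845 or 0.0862, and fitting days 0 and 8 alone gave 0.0957. Against day 4 the values were 0.105 or 0.104, 0.175 or 0.206, and 0.127 with days 4 and 8 alone. Without either day 8 library none of its days varies, and the small adjusted p then obtained has no weight.

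The Nfib sum was 580 and 363 CPM on day 0, 918 and 594 CPM on day 4, and 882 and 640 CPM on day 8. Both later days lay above day 0 and overlapped each other. The log2 difference was 0.64 at day 4 against day 0 (95% interval -0.24 to 1.51, adjusted p = 0.376) and 0.66 at day 8 against day 0 (95% interval -0.22 to 1.54, adjusted p = 0.313). The Nfix sum followed its exon 2 circle, with 10372 and 9225 CPM, 9096 and 9335 CPM, and 14234 and 11205 CPM. It differed by -0.09 at day 4 against day 0 (95% interval -0.47 to 0.30, adjusted p = 0.810), by 0.37 at day 8 against day 0 (95% interval -0.02 to 0.75, adjusted p = 0.200) and by 0.45 at day 8 against day 4 (95% interval 0.07 to 0.84, adjusted p = 0.155). For day 8 against day 0, 13.5% of the 2510 units were called (7.93% higher, 5.62% lower), and for day 8 against day 4, 9.88% (6.37% higher, 3.51% lower). At day 4 the sums of Nfia and Nfib had both libraries above both of day 0, a pattern shown by 20.9% of all units (the opposite by 26.3%). At day 8 all 3 sums stood above day 0 in this way (26.9% of units, the opposite 26.6%). For Nfib this rested on the circle of exons 2 to 8, which entered the table only through day 8. The Nfib circles ending on exon 6 summed to 580 and 363 CPM on day 0 and 686 and 569 CPM on day 8, which overlap. With circBase-listed circRNAs only, the Nfib log2 difference at day 8 against day 0 was 0.41. Against day 4, Nfix stood above (27.1% of units) and Nfia below (21.8%).

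**Figure D3:**
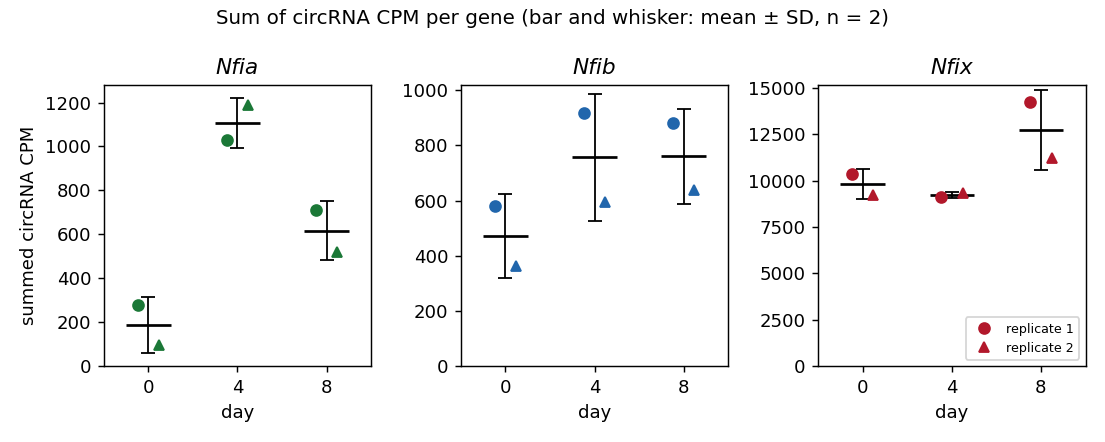
Summed circRNA CPM per gene (vertical axes from 0, scaled per gene) by day, with 2 libraries per day and the mean ± SD. The Nfia libraries separate by day with the highest values at day 4 (1028 and 1189 CPM), while for Nfix only day 8 stands above the other days.

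**Figure D4:**
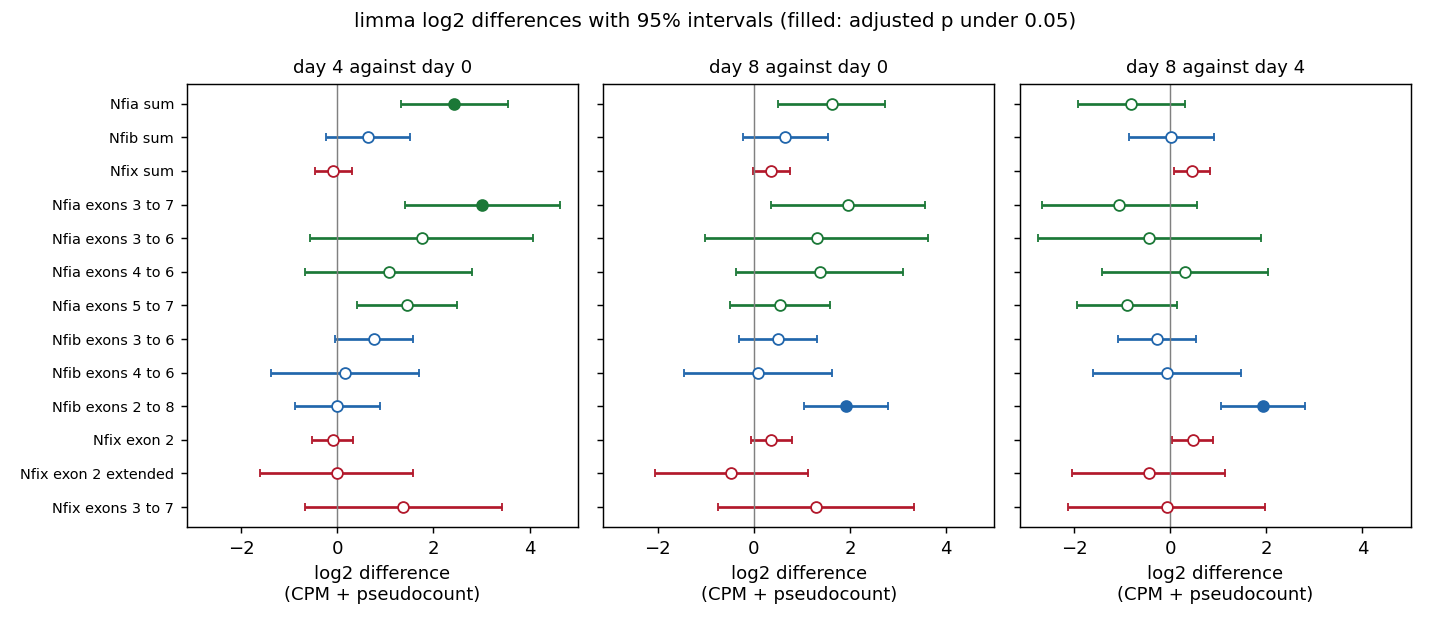
Log2 differences of CPM + 43.7 (horizontal axis) with 95% intervals from limma for the 3 sums and the 10 circRNAs in the 3 comparisons, filled where the adjusted p is under 0.05. The filled points are the Nfia sum and Nfia exons 3 to 7 at day 4 against day 0, and Nfib exons 2 to 8 at day 8 against either earlier day.

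The Nfix sum was the highest in every library, at 7.85 to 95.3 times the Nfia sum and 9.90 to 25.4 times the Nfib sum. The Nfib sum was above the Nfia sum in both day 0 libraries (2.08 and 3.75 times) and below it in both day 4 libraries (0.894 and 0.5 times), in 1 of them by no more than 47 reads against 42. In that library the Nfia circles starting at exon 3 summed to 918 CPM, the same as the Nfib sum. The rest of the Nfia sum was the circle starting at exon 5, which entered the table only through day 4. At day 8 the Nfib sum was again above the Nfia sum (1.24 and 1.23 times). The Nfib sum there holds exons 2 to 8, which entered the table only through day 8. The Nfib circles ending on exon 6 summed to 686 and 569 CPM at day 8, against Nfia sums of 710 and 521 CPM. Without exons 2 to 8 the order thus differed between the day 8 libraries. The log2 Nfib to Nfia ratio was tested over the 3 days by exact permutation of an F statistic, which has no direction. This exact permutation test gave p = 0.0667, the smallest that 2 libraries per day allow. The same p was obtained for the Nfix to Nfia ratio, for the Nfix to Nfib ratio and for the Nfia sum. It was 0.133 for the Nfix sum and 0.333 for the Nfib sum in the exact test. Adjusted over these 6 exact permutation tests, the smallest value was 0.1. Since this design cannot reach 0.05, the test could not show whether the genes took different courses, and no other test of it was made.

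Most single members had higher values at days 4 and 8 than at day 0, but 1 of 10 was called in each comparison. The summed CPM of the 10 members was 11230 and 9685 on day 0, 11042 and 11118 on day 4, and 15826 and 12365 on day 8. Days 0 and 4 overlapped in this total, most of which is the Nfix exon 2 circle, whose day 4 difference was -0.10. At day 4 against day 0 the log2 difference was above 0 for 7 of 10, below for 2 and equal for 1, with a median of 0.92 against 0.00 over the table. At day 8 against day 0 it was above 0 for 9 and below for 1 (median 0.92, against 0.00 for the whole list), and at day 8 against day 4 above 0 for 3 and below for 7 (median -0.17, against 0.04). Both libraries of the later day lay above both of the earlier one for 5 members at day 4 against day 0 (21.7% of the table), for 5 at day 8 against day 0 (26.2%) and for 2 at day 8 against day 4 (24.6%). They lay below for 0 members (24.5% of the table), 1 member (25% of the table) and 5 members (22% of the table). Nfia exons 5 to 7 and Nfix exons 3 to 7 entered the table only through day 4. Nfia exons 4 to 6 and Nfib exons 2 to 8 entered it only through day 8. Each was at 0 in both day 0 libraries, so this selection fixed its difference from day 0 on that day. The counts, medians and calls above include these circles. The comparisons with day 0 share its libraries, and circles of 1 gene share exon ends and a host, so the members are not independent.

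Other loci followed similar courses over the 6 libraries, among 839 outside the windows with a mean of at least 10 reads. The Nfia sum was most like 5 circRNAs on chromosome 3 (51098015 to 51129957, minus strand, led by mmu_circ_0001125), with a Pearson r of 0.989, and 2 on chromosome 9 (116014152 to 116040831, minus strand, led by mmu_circ_0001853), with r = 0.981. The first summed to 1949 and 1404 CPM on day 0, 4176 and 3838 CPM on day 4, and 3087 and 2795 CPM on day 8. The Nfib sum was most like mmu_circ_0001165 on chromosome 3 (r = 0.965) and mmu_circ_0000061 on chromosome 1 (r = 0.943). The Nfix sum was most like mmu_circ_0002433 on chromosome 10 (r = 0.967) and mmu_circ_0013558 with 1 overlapping circRNA on chromosome 6 (r = 0.926). These correlations of log2(CPM + 43.7) describe 6 libraries that share their depth and day, and the best of 839 will be high in any case.

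**Figure D5:**
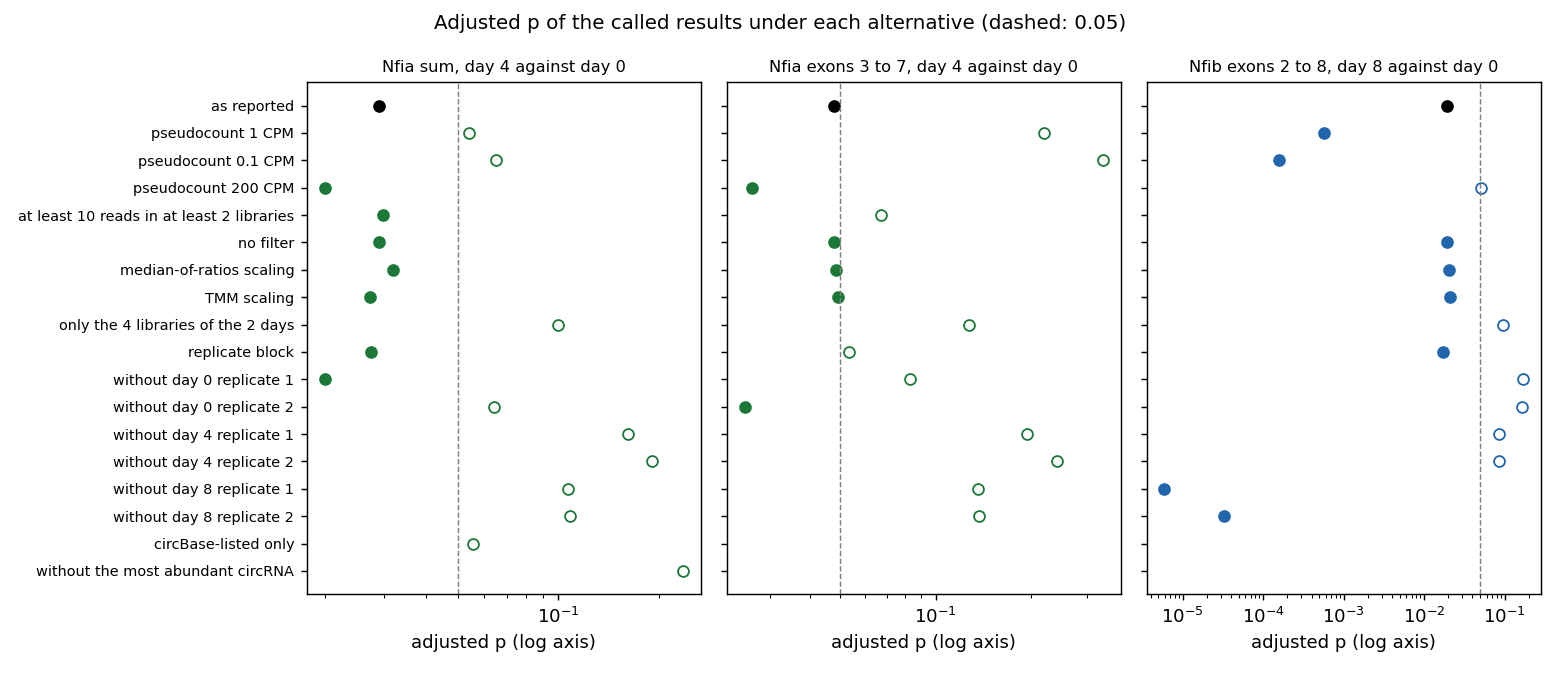
Adjusted p (horizontal log axis) of 3 called results under the processing as reported (black) and under each alternative, filled where under 0.05 (dashed line). For the Nfia sum at day 4 against day 0, leaving out any library except day 0 replicate 1 moved the value above 0.05; settings without a point gave no value.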

How the data were processed

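RNA depleted of ribosomal and linear RNA was sequenced, per the labels' protocols, from 6 libraries, 2 at each of days 0, 4 and 8. FastQC 0.11.9, HISAT2 2.2.0 and the build mm9 are named in the submitters' processing notes; the circRNA caller is not stated there or in the labels. The authors deposited CPM values, which sum to 1e+06 over the listed circRNAs in each library, so depth is known only as 40384 to 45733 inferred reads.

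Day means were compared with limma 3.58.1 (R 4.3.3, mean-variance trend, all 3 days together) on log2(CPM + 43.7), the pseudocount being the smallest non-zero value, without further scaling. Every entry passed the filter (above 0 in 2 or more libraries). Sums per gene were fitted among 2510 units. The procedure was tested on simulated data. Described in full were the 4 most abundant circRNAs per gene, every called one, and the largest difference per comparison. The loci likest each sum were the 2 with the highest Pearson r. Members, lists and tests were chosen with earlier results of these data known. Starts are given from 1. A gene list of brown fat regulators was not analysed, since no mm9 annotation was used here.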

Additional observations from a re-analysis of the deposited data

How the results depend on the processing

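No count model was run, because the inferred reads start at 2, so the planned edgeR and DESeq2 alternatives were not run. No Nfia circRNA was above 0 in all 6 libraries, and 6 members had too few reads for the filter of 10 reads in 2 libraries, so these gave no value there.

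The Nfia sum at day 4 against day 0 stayed higher under all 16 alternatives that changed the fit (log2 difference 1.79 to 3.03) but was called under 6. The Nfia sum includes a circle that entered the table only through day 4, which fixed part of this difference. Dropping the filter changed nothing, since it removed no entry. It was not called with pseudocounts of 1 CPM (2.74) and 0.1 CPM (2.75), in a fit of the 4 libraries of the 2 days (2.43), with circBase-listed circRNAs only (3.02) or without the leading circle (2.23), and it was 1.83 to 3.03 with a library left out (adjusted p = 0.020 to 0.192). At day 8 against day 0 it was 1.02 to 2.21 with a library left out. Without the leading circle, the Nfix sum reversed to 0.51 at day 4 against day 0 and to -0.22 at day 8 against day 4. The Nfib sum at day 8 against day 4 (0.02) was -0.27 to 0.32 with a library left out, and -0.23 both with circBase-listed circRNAs only and with those above 0 in all 6 libraries. From the Nfib sum, both of these settings remove only exons 2 to 8, which entered the table only through day 8. Why the other values moved was not tested.

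The count of members called, 1 in each comparison, became 0 after removing circRNAs that did not reach 10 reads in 2 libraries and in fits of the 4 libraries of the 2 days, in all 3 comparisons. It was 0 with pseudocounts of 1 and 0.1 CPM on day 4 against day 0, and with 200 CPM on day 8 against day 0 and against day 4. With a library left out it was 0 to 1, 0 to 1 and, at day 8 against day 4, 0 to 2. Over all circRNAs, the 314 called at day 4 against day 0 became 37 when those days were fitted alone. With the filter of 10 reads, under which 1368 were tested, the counts of 314, 477 and 370 became 50, 92 and 14. Among summed units, 200, 340 and 248 became 63, 115 and 24 of 1140 tested with that filter. At day 4 against day 0 they became 113 with those days alone, at day 8 against day 0 218 without day 8 replicate 2, and at day 8 against day 4 157 without either day 4 replicate.

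With the replicate number as a block, 0 members were called at day 4 against day 0 (adjusted p = 0.0532 for Nfia exons 3 to 7); no other call of a member or sum changed. Over the whole table, same-numbered libraries did not deviate together (correlations -0.0136, -0.00671 and -0.00705). Most entries have few reads, so counting error could hide a pairing, and this check cannot exclude one. For the Nfib sum at day 4 against day 0 the SE was 0.27 with the block and 0.35 without it.

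Among differences that were not called, the sign turned for Nfix exon 2 extended at day 4 against day 0 (-0.02), to 0.031 with TMM scaling, and ranged from -0.29 to 0.26 with a library left out. For Nfix exons 3 to 7 at day 8 against day 4 it turned to 0.10 with a pseudocount of 200 CPM and ranged from -1.38 to 1.22 with a library left out. With a library left out, Nfib exons 4 to 6 ranged from -0.45 to 0.75 (day 4 against day 0), -0.26 to 0.44 (day 8 against day 0) and -0.66 to 0.54 (day 8 against day 4). Nfia exons 3 to 6 ranged from -0.13 to 2.75 (day 8 against day 0) and Nfia exons 4 to 6 from -0.76 to 1.37 (day 8 against day 4). Counting error limits all members but Nfix exon 2: 4 reads carry an error of 50.0%.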
